A study of Mus musculus with 6 samples.

Results

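Kruppel-like factors (KLFs) are a family of DNA-binding proteins, and 10 of its genes with known roles in fat cells are described here: Klf2, Klf3, Klf4, Klf5, Klf6, Klf9, Klf10, Klf11, Klf13 and Klf15. They were taken by gene symbol from tables of read counts for 26214 genes. RNA-seq was used to measure them in cultured brown adipocytes of the mouse, the heat-producing kind of fat cell. Brown preadipocytes of 1 immortalized source were differentiated with insulin, thyroid hormone, a phosphodiesterase inhibitor, dexamethasone and indomethacin, and then kept in insulin and thyroid hormone. On day 7 all cultures received either 100 nM rotenone, which blocks NADH dehydrogenase (complex I), where electrons enter the mitochondrial respiratory chain, or the solvent DMSO, for 16 h. The groups had 3 deposited files each, numbered as replicates 1 to 3, which the series' design text calls independent. The 3 rotenone files held the same count for every gene, so they differed by less than the sampling noise and were counted as 1 sample. The DMSO files differed from one another at 16837 to 16944 genes. Thus 1 rotenone library was set against 3 DMSO libraries, and every measure of spread came from the DMSO libraries. Neither text says whether the replicates were separate cultures, so p-values reflect library-to-library spread alone, and that spread may be technical.

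Every KLF carries 3 zinc fingers at its C-terminal end, which bind GC-rich and CACCC-type DNA, while the rest of the protein recruits coactivators or corepressors. In adipocyte differentiation the family forms a relay around Pparg and Cebpa, the central adipogenic factors. Klf4, Klf5, Klf6, Klf9 and Klf15 are known to promote the process at successive steps, while Klf2 and Klf3 are known to hold it back. By sequence and partners the family is usually divided into a group with Klf3 that binds the corepressor CtBP, a group with Klf2, Klf4, Klf5 and Klf6 that mostly activates, and a group with Klf9, Klf10, Klf11 and Klf13 that binds the corepressor SIN3A. Klf15 stands outside these groups.

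Total counts were 26085061 to 29194179 in the DMSO libraries and 21611589 in the rotenone library. The 10 KLF genes took 12111 to 13047 of the DMSO counts and 12609 of the rotenone counts. Levels are given as CPM, counts scaled to a common library size. A gene with no count could have a level as high as 0.101 to 0.148 CPM (a floor of 3 counts, counting error only). The 9 general adipocyte markers summed to between 12090 and 13150 CPM in the DMSO libraries and 12170 CPM with rotenone, with Fabp4 the most abundant at 5121 ± 400 CPM in DMSO (SD, n = 3) and 5306 CPM with rotenone. Within that sum, Lipe, Cidec, Adipoq and Plin1 fell and Lpl rose; Lipe, the hormone-sensitive lipase gene, fell by 1.88 ± 0.07 on the log2 scale. Among 9 brown fat markers, Cidea and Cox7a1 were abundant, at 704 ± 64 and 320 ± 1.7 CPM in DMSO (SD, n = 3). Dio2 was near 0, with at most 0.236 CPM in any library. With rotenone Prdm16, Ucp1 and Ebf2 fell by 2.13 ± 0.14, 1.86 ± 0.21 and 1.61 ± 0.08 on the log2 scale. Elovl3 and Cox7a1 rose by 0.60 ± 0.11 and 0.20 ± 0.06. Cidea, Ppargc1a and Zic1 gave -0.06 ± 0.08, -0.08 ± 0.09 and -0.18 ± 0.10. The defining markers of macrophages (Adgre1, Ptprc), endothelium (Cdh5), skeletal muscle (Myod1) and epithelium (Epcam) were at or near 0 in all 4 libraries, but other genes of these lists were not. The 5 macrophage markers summed to 2.36 to 3.57 CPM in DMSO and 15.5 CPM with rotenone, all of the latter from Cd68. The 5 skeletal muscle markers summed to 50.1 to 52.2 CPM in DMSO and 48.3 CPM with rotenone, mostly from Des, which fell by 0.29 ± 0.09, while Acta1 rose by 4.87 ± 0.45 on the log2 scale, from 0.222 to 6.65 CPM. The 4 epithelial markers summed to 1.35 to 1.80 CPM in DMSO and 0.197 CPM with rotenone, from Krt18, which fell by 2.92 ± 0.73. The 5 endothelial markers summed to 0.449 to 0.658 CPM in DMSO and 1.08 CPM with rotenone, with none called. The part of these genes in the KLF changes was not tested.

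KLF genes are themselves often regulated by KLF and SP factors, so the promoters are shown for the members whose call held under every alternative test. These were Klf4, Klf6 and Klf11, all higher with rotenone. The sequences are from RefSeq on GRCm38.p6, 5′ to 3′ along the gene's strand. They begin 250 bases before the RefSeq start and stop before the first annotated transcribed base. Capitals mark the GC box, GGGCGG or CCGCCC on the other strand, which is bound by SP and KLF proteins.
Klf4 (chr4:55532476-55532725, minus strand): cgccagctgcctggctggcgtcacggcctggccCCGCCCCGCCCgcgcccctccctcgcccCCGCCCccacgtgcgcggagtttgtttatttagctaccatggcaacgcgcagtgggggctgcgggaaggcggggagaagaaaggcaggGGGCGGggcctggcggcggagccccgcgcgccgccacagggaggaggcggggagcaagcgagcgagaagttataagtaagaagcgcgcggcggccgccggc
Klf6 (chr13:5861239-5861481, plus strand): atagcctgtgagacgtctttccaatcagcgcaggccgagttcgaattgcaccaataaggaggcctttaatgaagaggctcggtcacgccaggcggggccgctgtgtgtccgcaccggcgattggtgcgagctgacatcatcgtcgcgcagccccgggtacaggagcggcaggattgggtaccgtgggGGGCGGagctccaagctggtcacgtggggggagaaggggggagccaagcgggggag
Klf11 (chr12:24651121-24651273, plus strand): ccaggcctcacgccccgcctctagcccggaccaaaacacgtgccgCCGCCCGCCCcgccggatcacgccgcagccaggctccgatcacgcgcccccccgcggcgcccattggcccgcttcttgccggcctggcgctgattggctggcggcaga

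Promoter entries were matched for 8 of the 10 members. Over the full 250 bases before the start, the GC box was found in 7 of these 8 promoters (Klf2, Klf3, Klf4, Klf6, Klf11, Klf13 and Klf15), and in 32.7% of 32851 mouse promoters of that length. Klf4 and Klf11 each had 4 GC boxes, with neighbouring boxes that overlap (2 of those of Klf11 lie past the printed stretch), Klf6 had 1 and Klf3 had 6. The CACCC box (CACCC, or GGGTG on the other strand) was found in Klf2, Klf3, Klf9, Klf13 and Klf15 and in 52% of all promoters. It was not found in the windows of Klf4, Klf6 or Klf11. The E-box CACGTG, which reads the same on both strands, was found in Klf4, Klf6, Klf11 and Klf15 and in 6.02% of all promoters. A site of the MEF2 type was found only in Klf2 among the 8, as CTAAATTTAG at bases -118 to -109 from the start, and in 3.2% of all promoters. The cyclic AMP response element core (TGACG or CGTCA) was found in Klf2, Klf4, Klf9, Klf13 and Klf15 and in 17.8% of all promoters, and CCAAT or ATTGG in Klf6, Klf9, Klf11, Klf13 and Klf15 and in 33.8%. The C/EBP-ATF composite core (TGATGNAA), the heat shock element, the ER stress element, the core of the glucocorticoid response element (TGTTCT) and the TATA box (TATAAA), each searched on both strands, matched none of the 8. They matched 3.45%, 0.466%, 0.113%, 16.1% and 12.4% of all promoters. These 8 windows held 59.6% to 78.4% G and C, against a median of 52.4% over all promoters, and GC-rich motifs are more frequent in such windows. A match describes letters and does not show binding.

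Levels of different genes were compared per kilobase of the longest annotated transcript (GENCODE M21). Klf10 was the most abundant member in DMSO, at 26.8 ± 0.6 CPM per kilobase (SD, n = 3), followed by Klf9 at 21.7 ± 1.5. Klf13 (13.1 ± 0.97), Klf6 (11.7 ± 0.84) and Klf11 (11.2 ± 0.82) came next, and neighbours among these 3 had overlapping ranges. Klf15 (9.31 ± 0.65) and Klf3 (9.15 ± 0.17) also overlapped. Klf2 stood at 2.27 ± 0.16, Klf4 at 1.03 ± 0.19 and Klf5 at 0.659 ± 0.14 CPM per kilobase, with no overlap between these neighbours. Klf2, Klf4 and Klf5 were thus the scarcest of the 10 in these day 7 cells. Klf6, of the same group, was not scarce, at 11.7 CPM per kilobase. In the rotenone library the order was Klf11, Klf9, Klf6, Klf10, Klf15, Klf3, Klf13, Klf4, Klf2 and Klf5, so that Klf11 moved from the fifth place to the first and Klf13 from the third to the seventh. This order depends on the transcript models, since some members have short partial transcripts: with the median length of coding transcripts only Klf5 kept its rank, though Klf2, Klf4 and Klf5 were again the lowest 3.

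The summed level of the 10 genes was 154 CPM per kilobase with rotenone, above the 106, 104 and 111 of DMSO replicates 1, 2 and 3. Klf11 took 10.5% ± 0.59 of this sum in DMSO (SD, n = 3) and 22.4% with rotenone, and Klf6 took 10.9% ± 0.47 and 18.5%. The share of Klf10 was 25.1% ± 0.68 in DMSO and 17.1% with rotenone, and that of Klf13 was 12.3% ± 0.74 and 5.28%. Klf9 held 20.3% ± 1 in DMSO and 20.1% with rotenone. In bulk RNA, a change in the cells that carry a transcript cannot be told apart from a change in RNA per cell.

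**Figure D1:**
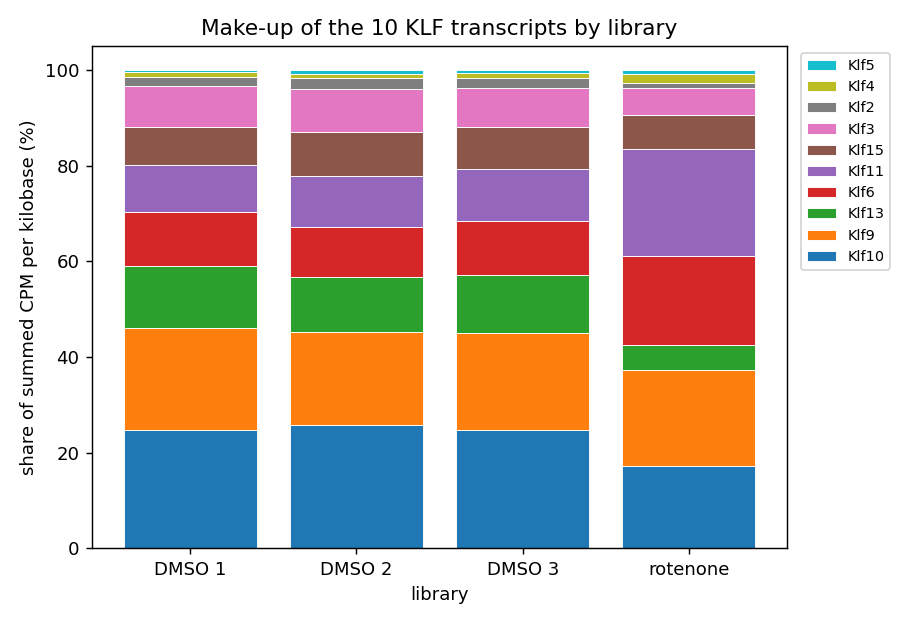
Share of each KLF gene in the summed level of the 10 genes (CPM per kilobase of longest transcript, in percent), with 1 stacked bar for each library. The 3 DMSO bars resemble one another, and in the rotenone bar Klf11 (22.4%) and Klf6 (18.5%) are wider and Klf13 (5.28%) and Klf10 (17.1%) narrower.

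The comparison of rotenone with DMSO asks how KLF transcripts differ when complex I is inhibited. Klf11, Klf4, Klf6, Klf5 and Klf9 rose and Klf13 fell by edgeR's quasi-likelihood test with Benjamini-Hochberg adjustment over all 14709 genes tested, at an adjusted p of 0.05. Klf2, Klf3, Klf10 and Klf15 did not pass. All 10 members passed the filter on low counts. The 6 calls among 10 members stood against 56.1% of all genes called, so that the share of members called was near the background. Of all genes 27.6% were called higher and 28.5% lower. Klf11, Klf4 and Klf6 also changed by at least 2-fold, as did 16.9% of all genes. The median log2 fold change was 0.36 over the 10 members and -0.04 over all genes. The rotenone level lay outside the range of the DMSO libraries for 9 of the 10 members, against 86.2% of all genes. When a coefficient of variation of 20% was assumed for every gene, in place of the 6.9% seen among the DMSO libraries, Klf11, Klf4, Klf6 and Klf5 passed and Klf9 and Klf13 did not. Under that assumption 23.6% of all genes were called, 9.57% higher and 14.0% lower. With 3 libraries against 1, an exact one-sided permutation test cannot go below p = 0.25, so none was run. The preadipocyte and fibroblast markers Acta2, Tagln, Thy1, Col1a1 and Dlk1 also rose and Pdgfra fell (5 and 1 of 8). Ly6a and Cd34 gave 0.78 ± 0.30 and 0.02 ± 0.40 on the log2 scale and were not called. The 8 markers summed to 1168 to 1342 CPM in DMSO and 3823 CPM with rotenone. Most of the rotenone sum came from Col1a1, Acta2 and Tagln, at 2121, 852 and 654 CPM. The part of the 8 markers in the KLF changes was not tested.

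**Figure D2:**
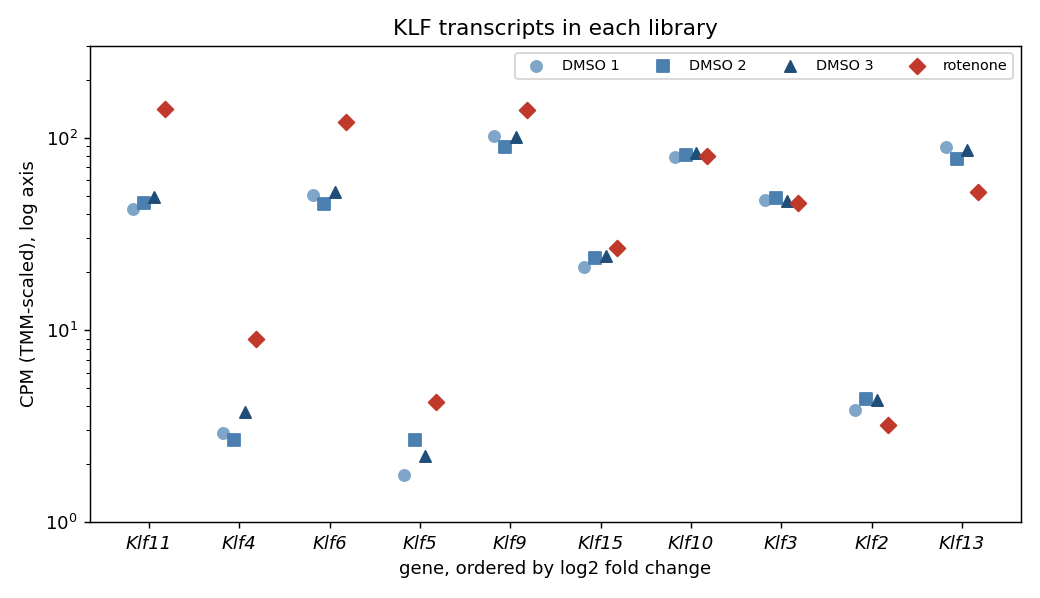
CPM of each KLF gene (log axis) in the 3 DMSO libraries and the rotenone library, 1 point a library, with genes ordered by log2 fold change. For Klf11, Klf4, Klf6, Klf5 and Klf9 the rotenone point lies above all DMSO points; for Klf13 it lies below, and for Klf10 it lies among them.

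Among the members of the activating group, Klf4, Klf5 and Klf6 rose. Klf6 (chromosome 13, 5861482 to 5870394, GRCm38, 4 exons) represses the preadipocyte gene Dlk1. Klf6 was at 50.2, 45.3 and 52.2 CPM in DMSO replicates 1 to 3 and at 120 CPM with rotenone. The rotenone value was above every DMSO value, and the log2 fold change was 1.29 ± 0.08 (SE; edgeR adjusted p = 2.16e-10). Klf4 (chromosome 4, 55527143 to 55532466) switches on Cebpb early in adipogenesis. Klf4 was at 2.90, 2.67 and 3.74 CPM in DMSO and 9.02 CPM with rotenone, from 77 to 100 counts and 183 counts. The groups did not overlap, and the log2 fold change was 1.54 ± 0.25 (edgeR adjusted p = 3.34e-05). Klf5 (chromosome 14, 99298691 to 99315036) activates Pparg after induction by C/EBP proteins. Klf5 was at 1.76, 2.67 and 2.21 CPM in DMSO and 4.24 CPM with rotenone. Its log2 fold change of 0.94 ± 0.33 rested on 52 to 77 DMSO counts and 86 rotenone counts (edgeR adjusted p = 0.0196). The call for Klf5 was not made by DESeq2 (adjusted p = 0.0703), and with the assumed coefficient of variation its adjusted p from edgeR's likelihood ratio test was 0.04995. The DMSO spread of Klf4 and Klf5 was 18.2% and 20.6% of the mean, where counting alone gives 10.7% and 12.6%.

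Klf2 (chromosome 8, 72319033 to 72321656) is the member of this group that restrains adipogenesis by repressing Pparg. Klf2 had a value of the opposite sign and did not pass the test. It was at 3.85, 4.40 and 4.31 CPM in DMSO and 3.20 CPM with rotenone, below all 3 DMSO values. The rotenone value rested on 65 counts, with an exact Poisson interval of 2.47 to 4.08 CPM that reaches into the DMSO range. Its log2 fold change was -0.38 ± 0.28 (edgeR adjusted p = 0.257), and the 95% interval of the fold ran from 0.508 to 1.16. Within each library, free of any scaling, Klf4 had 0.754, 0.606 and 0.870 counts for each count of Klf2 in DMSO and 2.82 with rotenone (exact binomial 95% interval 2.11 to 3.80, counting error only). The rotenone ratio lay above all DMSO ratios of this pair, which was chosen after its values were seen.

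The SIN3A-binding group held both the largest rise among the 10 members and the fall. Klf11 (chromosome 12, 24651274 to 24662789, 4 exons) is a TGF-beta-inducible factor known to act with PPAR gamma on brown fat genes. Klf11 was at 42.6, 45.6 and 49.3 CPM in DMSO and 141 CPM with rotenone. The rotenone level was 3.08 times the DMSO mean, with no overlap. The log2 fold change was 1.62 ± 0.08 (edgeR adjusted p = 5.86e-12), and its size exceeded that of 89.3% of the genes tested. Its nearest relative Klf10 (chromosome 15, 38291463 to 38300706) is also named for induction by TGF-beta. Klf10 was at 79.8, 81.6 and 83.4 CPM in DMSO and 80.3 CPM with rotenone, inside the DMSO range. Its log2 fold change was -0.02 ± 0.08 (edgeR adjusted p = 0.807), and the 95% interval of the fold ran from 0.881 to 1.10. Klf11 had 0.534, 0.558 and 0.591 counts for each count of Klf10 in the DMSO libraries and 1.76 with rotenone (exact binomial 95% interval 1.65 to 1.87). These relatives, which share their inducer and much of their protein sequence, were present in a different proportion in the rotenone library. This pair was chosen after its values were seen, so its ratio restates the fold changes above and is no separate test.

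Klf9 (chromosome 19, 23141226 to 23168134) is a glucocorticoid-induced activator of Pparg. Klf9 was at 102, 89.5 and 101 CPM in DMSO and 139 CPM with rotenone. The rotenone value was the highest of the 4, and the log2 fold change was 0.51 ± 0.08 (edgeR adjusted p = 1.9e-05). Klf13 (chromosome 7, 63886351 to 63938915), a close relative of Klf9, was first known from the RANTES gene in T cells. Klf13 was at 89.0, 77.1 and 86.1 CPM in DMSO and 52.0 CPM with rotenone. The rotenone value was the lowest of the 4, and the log2 fold change was -0.69 ± 0.09 (edgeR adjusted p = 3.24e-06). Both calls were lost with the assumed coefficient of variation of 20% (adjusted p = 0.258 and 0.14 by edgeR's likelihood ratio test). Klf9 had 1.14, 1.16 and 1.17 counts for each count of Klf13 in DMSO and 2.67 with rotenone (exact binomial 95% interval 2.49 to 2.87). The ratio varied little among DMSO libraries and was higher in the rotenone library. This pair too was chosen after its values were seen. Klf15 had 0.209, 0.265 and 0.241 counts for each count of Klf9 in DMSO. With rotenone it had 0.193, below all DMSO ratios (exact binomial 95% interval 0.175 to 0.211).

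**Figure D3:**
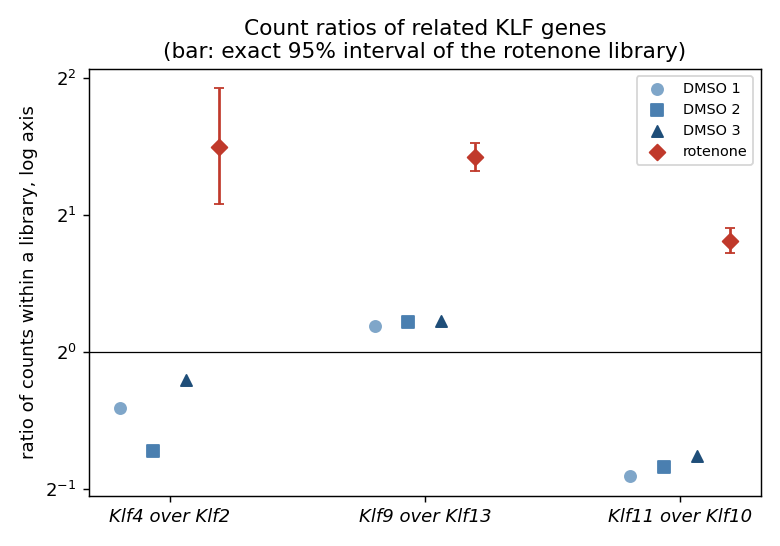
Ratio of counts of 3 pairs of related KLF genes within each library (log axis), with the exact binomial 95% interval of the rotenone library. Each rotenone ratio (2.82, 2.67 and 1.76) lies above all 3 DMSO ratios of its pair; the pairs were chosen after their values were seen.

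Over all genes, values fell off with transcript length. The median log2 fold change was 0.24 in the shortest decile of transcript length and -0.27 in the longest. Klf13 has the longest transcript of the 10 members, at 6396 bases, and the 222 genes in its bin of length and GC content had a median of -0.40. With that median subtracted its value was -0.29, less than its -0.69 before. The corrected values of the members that rose were 1.81 for Klf11, 1.59 for Klf4, 1.37 for Klf6, 0.97 for Klf5 and 0.62 for Klf9, all in the direction found before.

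Klf3 and Klf15 did not pass the test. Klf3 (chromosome 5, 64803388 to 64832901) is a CtBP-dependent repressor of Cebpa. Klf3 was at 47.6, 48.7 and 47.1 CPM in DMSO and 45.5 CPM with rotenone. The rotenone value was just below the DMSO range, with a log2 fold change of -0.07 ± 0.09 (edgeR adjusted p = 0.527; 95% interval of the fold 0.832 to 1.09). An antisense transcript, Gm20033, overlaps its exons by 404 bases, and the sources used here do not say whether counting used strand. Klf15 (chromosome 6, 90462576 to 90475238) raises Slc2a4 and genes of amino acid breakdown and is induced by glucocorticoids. Klf15 was at 21.3, 23.7 and 24.3 CPM in DMSO and 26.8 CPM with rotenone. That value was the highest of the 4, with a log2 fold change of 0.21 ± 0.12 (edgeR adjusted p = 0.153; 95% interval of the fold 0.968 to 1.39).

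**Figure D4:**
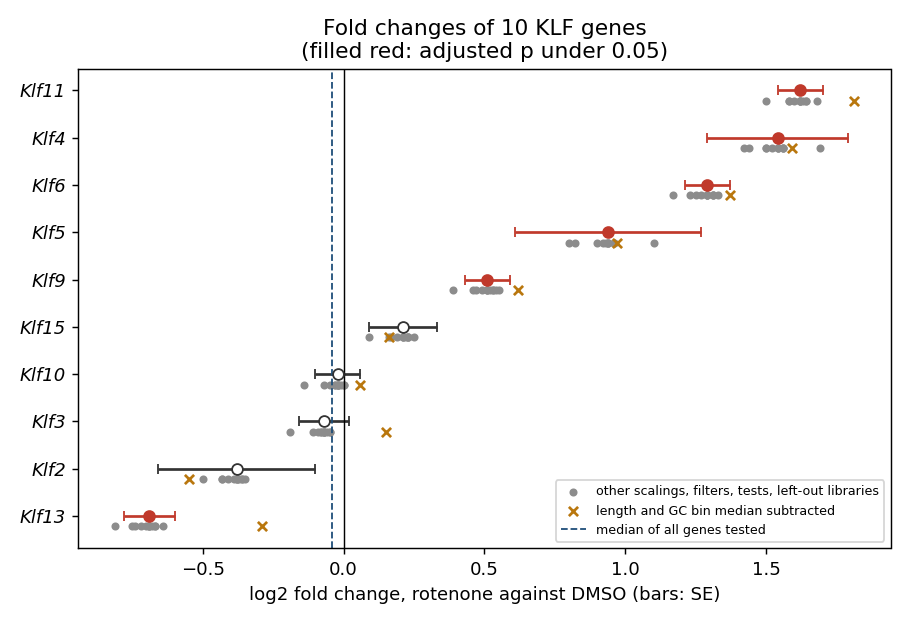
Log2 fold change of each KLF gene, rotenone against DMSO, with SE; filled red circles passed an adjusted p of 0.05, grey points are the other tests and scalings, crosses the length and GC correction, and the dashed line the median of all genes (-0.04). The values run from 1.62 for Klf11 to -0.69 for Klf13, and the cross of Klf13 lies at -0.29.

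Other genes of the family were read from the same fit. Of the 7 other KLF genes, 4 passed the filter. Klf7, an inhibitor of adipogenesis, rose by 0.79 ± 0.22 on the log2 scale, from 5.81, 4.98 and 7.34 CPM to 10.4 CPM (edgeR adjusted p = 0.00492), a call lost with the assumed coefficient of variation of 20% (adjusted p = 0.0764). Klf1, the erythroid factor, had 27, 38 and 26 counts in DMSO and 1 count with rotenone, a ratio of 0.0461 (exact binomial 95% interval 0.00116 to 0.264; edgeR adjusted p = 0.00295). Klf16 gave 0.26 ± 0.15 and Klf12 -1.41 ± 1.20 on the log2 scale, neither past the threshold. Klf8 had at most 4 counts in any library, Klf17 at most 5 and Klf14 had 0. Of the SP factors, which share the zinc fingers and bind the same GC boxes, 5 of 9 were tested. Sp1 and Sp2 rose by 0.25 ± 0.07 and 0.35 ± 0.11 on the log2 scale, Sp3 fell by 0.22 ± 0.08, and Sp4 and Sp6 gave -0.38 ± 0.18 and -1.07 ± 0.77. These SP calls were lost with the assumed 20%.

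Cofactors of KLF proteins were called in both directions, 4 higher and 3 lower of 13 tested, with a median log2 fold change of 0.09. The acetyltransferase genes Ep300 and Kat2b, coactivators of several KLFs, fell by 0.75 ± 0.08 and 0.69 ± 0.09, while Crebbp, the paralog of Ep300, rose by 0.37 ± 0.09. Sap18, a subunit of the SIN3 complex, rose by 0.41 ± 0.08. Of the corepressors bound by Klf3, Ctbp1 rose by 0.32 ± 0.08 and Ctbp2 fell by 0.37 ± 0.15, and Sin3a, the corepressor of the Klf9 group, gave -0.01 ± 0.08. Among 5 genes of KLF protein turnover, Fbxw7, a ubiquitin ligase subunit that targets Klf5 and Klf2, fell by 1.06 ± 0.25, Itch fell by 0.49 ± 0.11 and Smurf1 rose by 0.45 ± 0.07. Wwp1, a ligase for Klf2 and Klf5, gave -0.17 ± 0.12. With the assumed 20%, only Fbxw7 passed among these 2 lists.

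Upstream genes were described by the inputs known for each member. The MEK5-ERK5-MEF2 arm switches on Klf2 and Klf4 in endothelial cells, and 3 of its 8 genes rose and 1 fell (median 0.02). Mef2d rose by 0.69 ± 0.07, Mef2c by 0.62 ± 0.21 and Map3k3 by 0.38 ± 0.09, Map2k5 (MEK5) fell by 0.58 ± 0.14, and Mapk7 (ERK5) gave 0.11 ± 0.13. None of these 5 passed with the assumed 20%. Mef2b, at 16, 19 and 29 counts in DMSO and 4 with rotenone, gave -1.92 ± 0.95 (edgeR adjusted p = 0.0954) and was the 1 gene of the arm that passed, as lower, with the assumed 20% (adjusted p = 0.0359). Of 14 genes of the glucocorticoid receptor and its targets, the input of Klf9 and Klf15, 3 rose and 7 fell (median -0.31). Nr3c1, the receptor itself, fell by 0.72 ± 0.08; it was at 116, 118 and 124 CPM in DMSO and at 72.6 CPM with rotenone. Among its targets, which also answer to other signals, Mt2 fell by 3.03 ± 0.14, Angptl4 fell by 2.63 ± 0.08 and Mt1 fell by 2.16 ± 0.08. Per1 and Tsc22d3, the latter encoding GILZ, rose by 1.07 ± 0.07 and 0.54 ± 0.08. With the assumed 20%, Mt2, Angptl4, Mt1 and Per1 passed and Nr3c1 and Tsc22d3 did not.

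Of 15 genes of the early TGF-beta response, the input named for Klf10 and Klf11, 3 rose and 6 fell (median -0.06). Id1 fell by 3.29 ± 0.18, Smad6 by 1.32 ± 0.15 and the receptor gene Tgfbr1 by 1.17 ± 0.17, while the corepressor gene Tgif1 rose by 1.36 ± 0.10. Tgfb1 gave 0.01 ± 0.08 and the feedback inhibitor Smad7 gave -0.27 ± 0.19. Of 16 immediate early genes, the class to which Klf2, Klf4, Klf6 and Klf10 belong in many cells, 5 rose and 7 fell (median -0.22). Atf3 rose by 2.83 ± 0.11, and Junb and Jun by 1.73 ± 0.09 and 1.68 ± 0.07. Fosl1 fell by 4.91 ± 0.23, Egr2 by 2.49 ± 0.63, and Fosb had 172 counts over the DMSO libraries and 2 with rotenone, a ratio of 0.0488 (exact binomial 95% interval 0.00587 to 0.179). Of 16 clock and clock output genes, 8 rose and 4 fell (median 0.27); Klf9, Klf10 and Klf15 are clock-controlled in many tissues. Nr1d1, a clock repressor, rose by 2.91 ± 0.07, Ciart by 1.86 ± 0.13 and Npas2 fell by 1.83 ± 0.43, while Arntl gave 0.23 ± 0.20.

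Genes at which KLFs are known to act in adipocytes were lower more often than higher. Of 12 tested, 2 rose and 7 fell, with a median of -0.37. Cebpa, the target repressed by Klf3, fell by 2.31 ± 0.08, from 584, 555 and 536 CPM to 112 CPM. Pparg, the target of Klf2, Klf5, Klf9 and Klf15, fell by 0.65 ± 0.07, from 495, 469 and 490 CPM to 308 CPM. Prdm16 and Ucp1, genes of the brown program, fell by 2.13 ± 0.14 and 1.86 ± 0.21. Dlk1, the gene repressed by Klf6, rose by 1.38 ± 0.10, from 29.4, 34.8 and 32.5 CPM to 83.6 CPM. With the assumed 20%, Pparg did not pass and Cebpa, Prdm16, Ucp1, Egr2 and Dlk1 did. Cebpb, the target of Klf4, was at 280, 80.2 and 126 CPM in DMSO and 219 CPM with rotenone, so that its DMSO libraries differed too much to place the rotenone value; it is named after its values were seen.

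Klf15-linked metabolic genes numbered 10 tested, of which 4 rose and 2 fell (median 0.19), and none passed with the assumed 20%. Prodh, which starts proline breakdown, rose by 0.74 ± 0.13, Lpl by 0.53 ± 0.07 and the carnitine carrier gene Slc25a20 by 0.31 ± 0.07, and Gpt fell by 0.27 ± 0.07. Slc2a4, the insulin-responsive glucose transporter, rose by 0.20 ± 0.06, and Bcat2, of branched-chain amino acid breakdown, gave 0.17 ± 0.10. Across these lists the share of genes called ran from 50% to 75%, around the 56.1% of all genes.

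**Figure D5:**
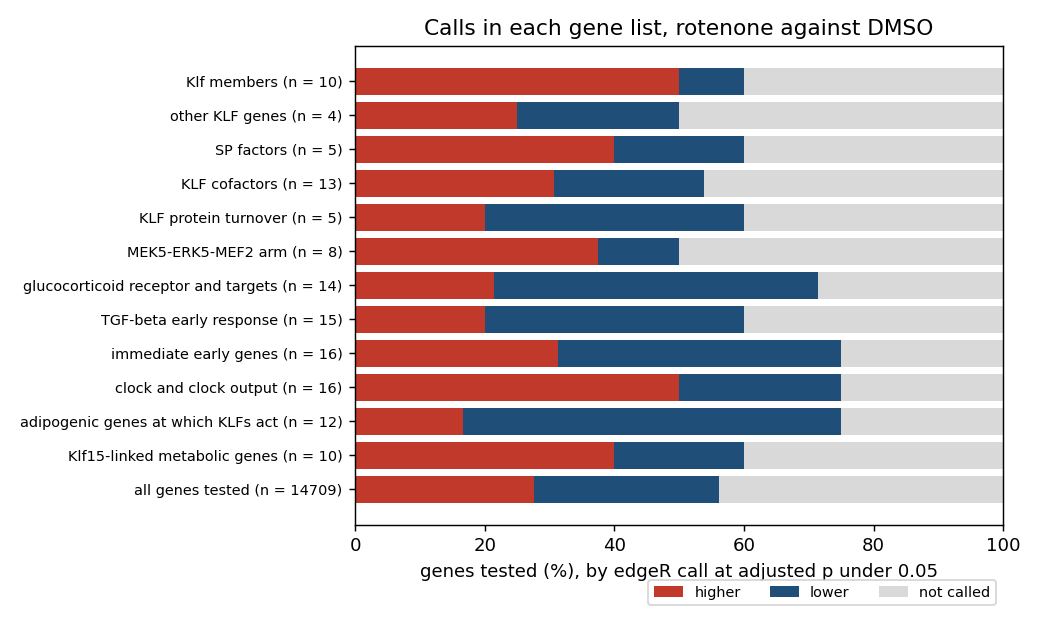
Percent of the tested genes of each list that were called higher, lower or not called (edgeR, adjusted p of 0.05), with all 14709 genes at the bottom. Of the 10 KLF genes 5 were higher and 1 lower; 7 of 12 adipogenic genes were lower.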

How the data were processed

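RNA-seq libraries were prepared from Trizol-extracted RNA with a NEBNext Ultra kit, per the labels' protocols. The deposited files give raw, unnormalized counts for each gene symbol; TopHat2 and mm10 were used, per the submitters' processing notes. The sources used here give no versions, counting program, annotation or strand setting.

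The identical rotenone files entered as 1 library. Counts were filtered with filterByExpr, scaled by TMM and tested with edgeR 4.0.16 (robust quasi-likelihood F test, 2 residual degrees of freedom, R 4.3.3), with Benjamini-Hochberg adjustment over 14709 genes. The SE is the log2 fold change over the square root of F, and CPM use TMM-scaled library sizes. The 95% intervals of the fold come from this SE and a t distribution with 18.55 total degrees of freedom for the members. That total includes degrees of freedom borrowed from the spread of other genes. Lengths, GC content and positions come from the GENCODE M21 annotation of GRCm38, which mm10 names; promoters are from RefSeq. On simulated data with a coefficient of variation like that of the DMSO libraries, 73.4%, 89.6% and 97.0% of genes changed by 1.5-fold, 2-fold and 4-fold were recovered among 14390 genes, with 9 false of 180 calls; the simulated share of changed genes was far below the share called here.

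The 10 members and the gene lists were chosen with earlier results of these data known. Named were all members, other KLF and SP genes past the filter, and from each list up to 4 of the largest changes past the threshold and up to 2 genes tied to a member's role. Crebbp, Mef2b, Cebpb, Cebpd, Egr1 and the gene pairs were chosen after values were seen. No set test was run. Alternatives were other scalings, filters, limma-voom (limma 3.58.1), DESeq2 1.42.0, left-out DMSO libraries, Rn45s left out, an adjusted p of 0.01, a 20% coefficient of variation in edgeR's likelihood ratio test, and a correction for length and GC in 8 by 8 bins.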

Additional observations from a re-analysis of the deposited data

How the results depend on the processing

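In 12 alternative tests, the calls and directions of Klf4, Klf6 and Klf11 held, with log2 fold changes of 1.42 to 1.69, 1.17 to 1.33 and 1.5 to 1.68, and Klf2, Klf3, Klf10 and Klf15 passed in none. Klf5 was lost with DESeq2 (0.96) and at an adjusted p of 0.01, which left 5 members, 4 higher and 1 lower, and Klf9 and Klf13 with the assumed coefficient of variation of 20%. That setting left 0 members called lower, and 3471 genes called in all, 1408 higher and 2063 lower. It left 0 SP factors, 0 KLF cofactors, 1 gene of KLF protein turnover and 1 of the MEK5-ERK5-MEF2 arm. Of the other lists, it left 4 genes of the glucocorticoid list, 5 of the TGF-beta list and 7 of the clock list. It also left 5 of the adipogenic list and 0 of the Klf15-linked list. The immediate early list hardly changed in number, with 11 genes past the threshold against 12 in the main test. Its directions shifted, with 6 higher and 5 lower against 5 higher and 7 lower in the main test. Egr1 was gained as higher, and Btg2 and Nr4a1 were lost. With library size only, all 5 genes of KLF protein turnover passed, and the all-gene median was -0.16 on the log2 scale in place of -0.04. The order of levels matched at 1 of 10 ranks with the median coding transcript length, and at 8 to 10 ranks when a DMSO replicate was left out: Klf6 and Klf11 changed places without replicate 1, and Klf15 and Klf3 without replicate 3. The length and GC correction gives values without a test, so no counts; it took Klf3 to 0.15 and Klf10 to 0.06, neither called. No paired analysis was possible because the 3 rotenone files hold the same counts and count as 1 sample, so the replicate block was not run. Depth limits Klf2, Klf4 and Klf5 most, with 52 to 183 counts in each library.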

Other observations

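A few genes varied widely among the DMSO libraries themselves. Cebpb was at 280, 80.2 and 126 CPM in DMSO replicates 1, 2 and 3, a spread not shared by Cebpa (584, 555 and 536 CPM) or Cebpd (27.3, 31.4 and 29.9 CPM). Klf12 had 24, 20 and 2 counts in the same libraries, and Egr1 varied less, at 31.0, 37.6 and 51.0 CPM. By contrast, the DMSO libraries of Klf3 and Klf10 varied by 1.8% and 2.24% of the mean, where counting alone gives 2.71% and 2.08%.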
